A study of Caenorhabditis elegans with 5 samples.

Results

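The 9 genes described here are members of the Pumilio (PUF) family of RNA-binding proteins in Caenorhabditis elegans: fbf-1, fbf-2, puf-3, puf-5, puf-6, puf-7, puf-8, puf-11 and puf-12. They were chosen by name, through the gene symbols that the deposited tables give for each feature, and each of the 9 matched 1 of 19176 features. RNA of whole wild type N2 animals was sequenced at the last larval stage, L4 (2 libraries), and on Day 6 of adulthood (3 libraries). Both groups grew at 20° on E. coli HT115 with the empty RNAi plasmid L4440, on plates with 2 mM IPTG and carbenicillin. From L4 onward the Day 6 group was also kept on 25 µg/mL of FUdR, a blocker of DNA synthesis that prevents progeny, so that age and FUdR cannot be told apart. Each library came from a pooled population, and the study calls the replicates biologically independent.

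PUF proteins bind short sequence elements in the 3′ untranslated regions of mRNAs and, as a rule, repress them, in part by recruiting the CCR4-NOT complex that shortens poly(A) tails. In the hermaphrodite germline, FBF-1 and FBF-2 keep germline stem cells and act in the switch from sperm to oocyte fate. PUF-8 also acts in proliferating germ cells and spermatocytes, whereas PUF-5, PUF-6 and PUF-7, and PUF-3 with PUF-11, act in oogenesis and in the early embryo. At L4 a hermaphrodite makes sperm and has no full-grown oocytes, and the adult germline makes oocytes, so the comparison of the stages asks how transcripts of these regulators differ between the larva and the aging adult.

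The 9 genes lie on chromosomes II and IV (WBcel235, Ensembl annotation). On the minus strand of chromosome II, fbf-1 (WBGene00001401) is at 6078263 to 6080843 and fbf-2 (WBGene00001402) at 6088863 to 6091480, with 8019 bases between them. Also on chromosome II are puf-8 (WBGene00004244) at 7296110 to 7298247, puf-5 (WBGene00004241) at 8575541 to 8577787, puf-12 (WBGene00014165) at 10100310 to 10103061 and puf-6 (WBGene00004242) at 13039792 to 13043445. On chromosome IV are puf-7 (WBGene00004243) at 5486713 to 5490322, puf-11 (WBGene00022257) at 6421585 to 6423497 and puf-3 (WBGene00004239) at 13510307 to 13512162. Their exons add up to between 1729 bases (puf-11) and 2510 bases (puf-12). Among them, puf-12 shares the most exon sequence with a gene on the opposite strand, 91 bases with ZK945.4, which had 4 to 103 counts per library. The exons of fbf-1 share 15 bases with H12I13.6 (5 to 24 counts). Paralogs in this family are alike, and how the counting treated reads that match more than 1 gene is not given in the sources used here.

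Total counts were 14517986 and 9368922 at L4 and 13043617 to 29247719 at Day 6. Levels below are CPM, that is read counts relative to library size after scaling by the trimmed mean of M values (TMM), with TMM factors of 0.293 (L4 replicate 1), 1.62 (L4 replicate 2) and 1.03 to 1.63 (Day 6). L4 replicate 1 stood apart. Its log2 CPM correlated across genes with L4 replicate 2 at a Pearson's r of 0.80, against 0.96 to 0.97 between Day 6 libraries, and it held few counts of long genes. In the eighths of genes with exon lengths of 1681 to 2092 and of 2093 to 2916 bases, which take in all 9 PUF genes, its median log2 difference from Day 6 was -1.16 and -1.82, against 0.00341 and -0.35 for L4 replicate 2. Values without it are given beside those results that it moved most. The stages were compared in edgeR (quasi-likelihood test, 12758 genes, Benjamini-Hochberg adjusted p under 0.05), and SE is the standard error of a log2 fold change. Rises made up 53.3% of all calls under TMM and 42.9% under upper-quartile scaling.

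Of the 9 PUF genes, all of which passed the filter on low counts, 6 rose from L4 to Day 6 and none fell, while 3 missed the threshold. Of all genes tested, 14.3% rose and 12.5% fell. The genes that rose were puf-3, puf-5, puf-6, puf-7, puf-8 and puf-11, and the genes that did not pass were fbf-1, fbf-2 and puf-12. The same 6 genes rose with DESeq2 and with voom, and none fell with either tool or at an unadjusted p under 0.05. In RNA of whole animals, more cells of a type and more RNA per cell cannot be told apart.

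**Figure D1:**
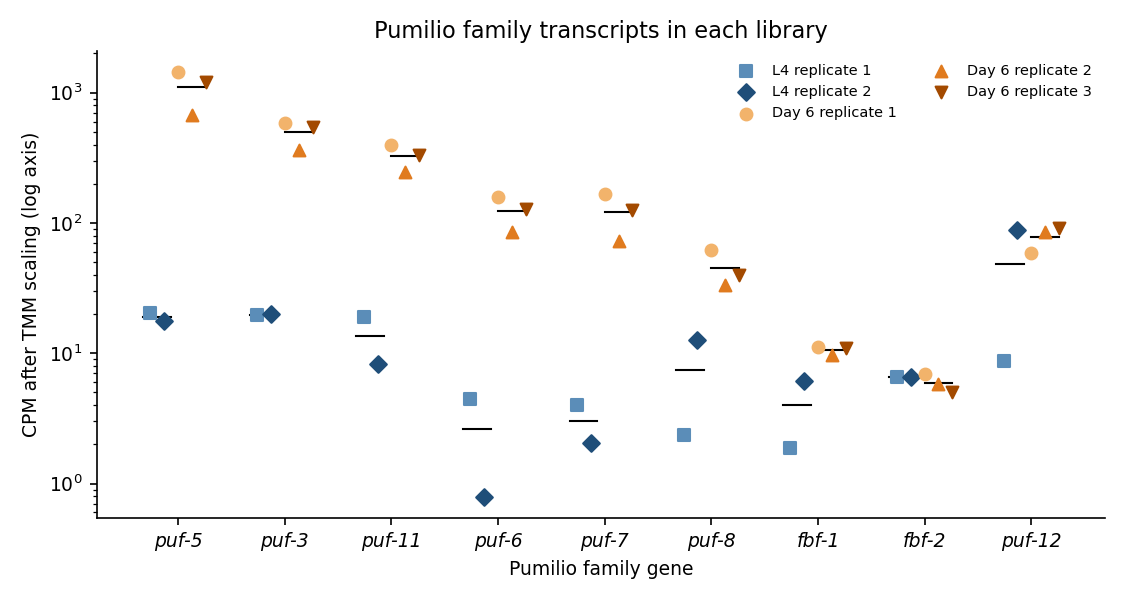
Level of each Pumilio family gene (CPM after TMM scaling, log axis) in the 2 L4 libraries (blue) and the 3 Day 6 libraries (orange), with black lines at the mean of each stage. The Day 6 points of puf-5, puf-3, puf-11, puf-6 and puf-7 stand far above the L4 points, whereas those of fbf-2 and puf-12 overlap them.

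With all 5 libraries the largest log2 fold change was that of puf-5, which acts in late oogenesis. Levels, given here and below in the order of the replicate numbers, were 20.2 and 17.6 CPM at L4 and 1442, 671 and 1215 CPM at Day 6. Both L4 libraries were low and close to each other, and the lowest Day 6 library was replicate 2. The log2 fold change was 5.88 (SE 0.94, edgeR adjusted p = 0.00667), and 6.05 without L4 replicate 1. The call was lost without Day 6 replicate 3 (5.79, edgeR adjusted p = 0.0502).

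The redundant partners of puf-5 in oogenesis, puf-6 and puf-7, had low levels at L4. For puf-6 the levels were 4.46 and 0.794 CPM at L4, which rest on 19 and 12 counts, and 158, 85.7 and 129 CPM at Day 6. For puf-7 they were 3.99 and 2.05 CPM at L4, from 17 and 31 counts, and 167, 73.3 and 126 CPM at Day 6. The stages did not overlap in either gene, and Day 6 replicate 2 was again the lowest of its group. The log2 fold change was 5.67 for puf-6 (SE 0.95, edgeR adjusted p = 0.00758) and 5.38 for puf-7 (SE 0.74, edgeR adjusted p = 0.00462). Without L4 replicates 1 and 2 in turn, the change was 7.35 and 4.80 for puf-6 and 5.96 and 4.94 for puf-7. Both genes passed the test under all 16 alternative settings.

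The rise of puf-3 and puf-11, another set of maternal PUF genes, was smaller in fold but started from a higher level. The level of puf-3 was 19.5 and 19.9 CPM at L4 and 590.1, 363 and 541 CPM at Day 6. The level of puf-11 was 19.0 and 8.34 CPM at L4 and 394, 247 and 333 CPM at Day 6. The L4 libraries agreed closely for puf-3 and less so for puf-11, and no Day 6 library came near them. Their log2 fold changes were 4.66 (SE 0.74, edgeR adjusted p = 0.00647) and 4.58 (SE 0.76, edgeR adjusted p = 0.00737). Without L4 replicates 1 and 2 in turn, puf-11 had changes of 5.36 and 4.10. Its call was lost without Day 6 replicate 3 (4.54, edgeR adjusted p = 0.0500005, just over the threshold).

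In puf-8, a regulator of germ cell proliferation and of spermatocytes, the rise was smaller and depended on the libraries used. It was at 2.35 and 12.6 CPM at L4 and at 61.9, 33.7 and 39.8 CPM at Day 6. The stages did not overlap, but the L4 libraries were 5.35-fold apart. The log2 fold change was 2.56 (SE 0.78, edgeR adjusted p = 0.0453), with 1.92 when L4 replicate 1 was left out and 4.27 when L4 replicate 2 was. The call was lost with any Day 6 library left out (2.26, 2.70 and 2.63 without replicates 1, 2 and 3, edgeR adjusted p = 0.158, 0.104 and 0.133) and under upper-quartile scaling (2.27, adjusted p = 0.0547) or scaling by library size alone (2.42, adjusted p = 0.351).

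The stem cell regulators fbf-1 and fbf-2 had low levels at both stages. For fbf-1 the levels were 1.88 and 6.09 CPM at L4, from 8 and 92 counts, and 11.2, 9.76 and 11.03 CPM at Day 6. Every Day 6 library lay above both L4 libraries, which was so for 7 of the 9 PUF genes and for 35.4% of all genes tested, and the reverse held for no PUF gene and 23.4% of all genes. The log2 fold change of 1.37 did not pass the test (SE 0.65, edgeR adjusted p = 0.147), was 0.88 without L4 replicate 1 (adjusted p = 0.0574) and passed at 2.51 without L4 replicate 2 (adjusted p = 6.99e-04), where L4 rests on 8 counts. For fbf-2 the levels were 6.58 and 6.55 CPM at L4 and 6.94, 5.84 and 5.003 CPM at Day 6. The L4 levels lay within the range of the Day 6 levels, and the log2 fold change was -0.15 (SE 0.54, edgeR adjusted p = 0.852). Its sign depended on the scaling, with 0.29 by library size alone.

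The level of puf-12 was set apart by the gap between the L4 libraries. L4 replicate 1 had 8.69 CPM and L4 replicate 2 had 87.8 CPM, from 37 and 1327 counts, and the Day 6 libraries had 58.5, 85.6 and 91.9 CPM. L4 replicate 2 lay among the Day 6 libraries and L4 replicate 1 below all of them. The log2 fold change was 0.70 (SE 0.86, edgeR adjusted p = 0.561), with -0.081 when L4 replicate 1 was left out (adjusted p = 0.855) and 3.18 when L4 replicate 2 was (adjusted p = 5.14e-05). Of the 9 genes puf-12 has the longest exons, and the part of length in the gap between the L4 libraries was not tested.

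**Figure D2:**
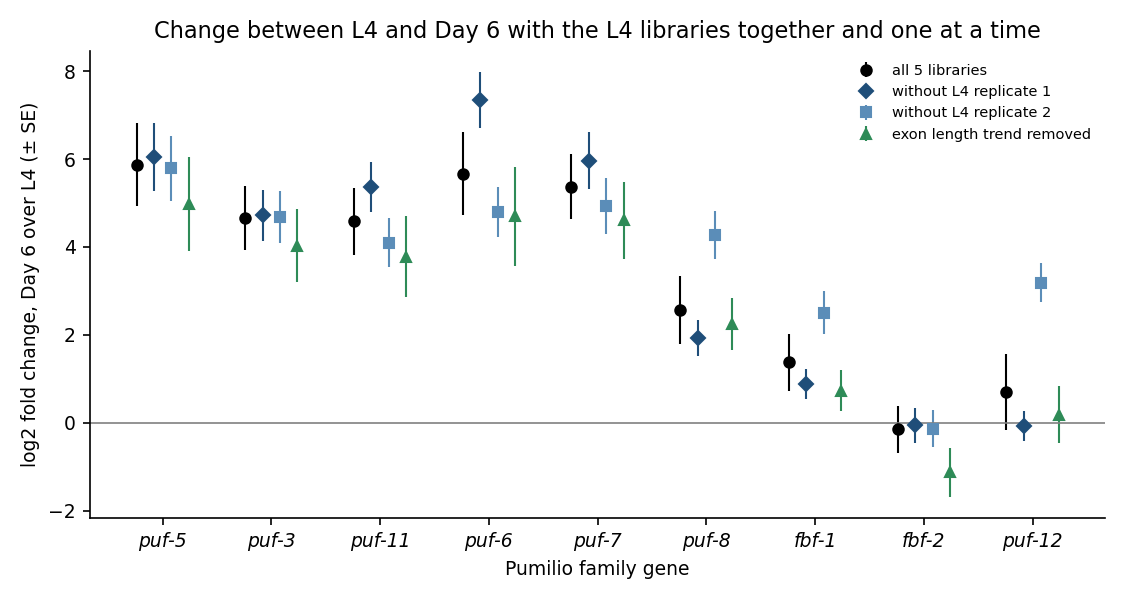
Log2 fold change of each Pumilio family gene (Day 6 over L4, bars are standard errors) with all 5 libraries, with either L4 library left out, and after correction for exon length. The changes of puf-5, puf-3, puf-11, puf-6 and puf-7 stay between 3.78 and 7.35 in all 4 fits, while that of puf-12 goes from -0.081 to 3.18.

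After each library was corrected for its trend with exon length, the same 6 genes rose. Their log2 fold changes were then 4.98 for puf-5, 4.70 for puf-6, 4.60 for puf-7, 4.03 for puf-3, 3.78 for puf-11 and 2.24 for puf-8, where the median over all genes was -0.32. In this fit fbf-1, puf-12 and fbf-2 had changes of 0.73, 0.18 and -1.13 that missed the threshold (edgeR adjusted p = 0.254, 0.846 and 0.151). The replicate numbers in the sample titles and in the library names conflict at L4, and the result depended on which were taken as shared preparations. With a replicate block by title numbers, puf-8 lost its call (2.97, edgeR adjusted p = 0.0725). With a block by library-name numbers, puf-6 and puf-7 rose, and puf-11, puf-3, puf-5 and puf-8 did not pass (4.51, 4.49, 5.58 and 2.69, edgeR adjusted p = 0.0599, 0.0896, 0.100 and 0.164).

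The make-up of the family differed between the stages for some genes, and it also differed between the L4 libraries. Within a library, the share of each gene in all PUF counts does not depend on the scaling between libraries. The family as a whole had 369 and 2444 counts in L4 replicates 1 and 2, and together reached 86.7 and 162 CPM, against 1575 to 2889 CPM at Day 6. The 5 genes of oogenesis (puf-3, puf-5, puf-6, puf-7 and puf-11, grouped by their known role with the values in view) held 77.5% and 30.1% of the PUF counts at L4 and 91.4% to 95.2% at Day 6. At Day 6 puf-5 held 42.6% to 49.9% of the family, puf-3 20.4% to 23.0% and puf-11 13.4% to 15.7%. At L4, puf-5 held 23.3% and 10.9%, and the L4 libraries differed from each other, since puf-12 held 10.03% in replicate 1 and 54.3% in replicate 2. The L4 shares of fbf-1 (2.17% and 3.76%) and fbf-2 (7.59% and 4.05%) compare with Day 6 maxima of 0.619% and 0.371%.

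**Figure D3:**
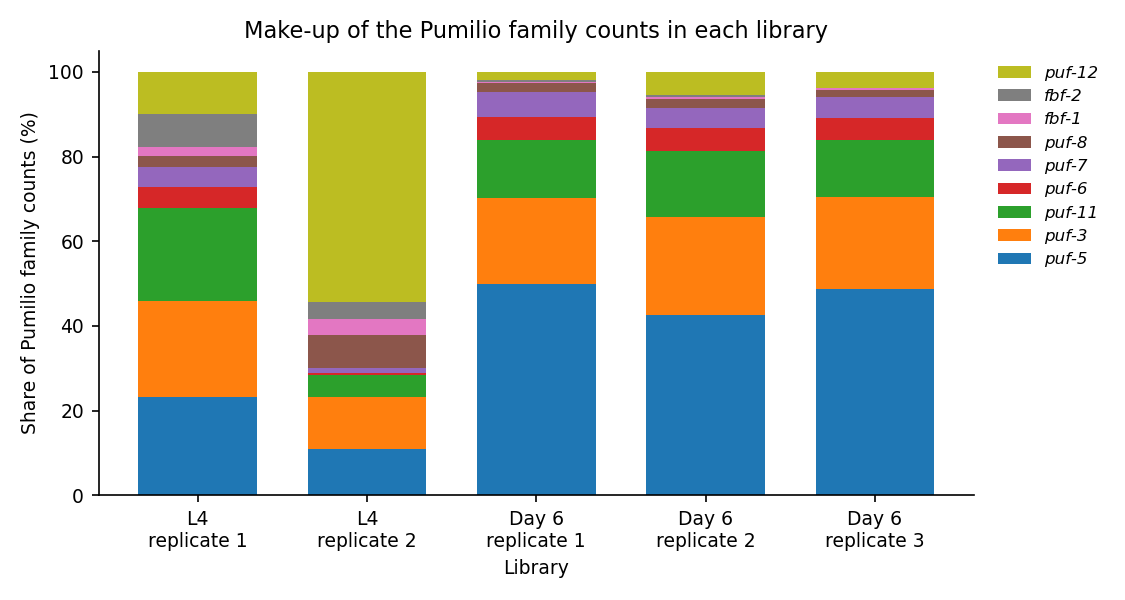
Share of each gene in the counts of the 9 Pumilio family genes (percent, stacked) in each library. At Day 6 puf-5, puf-3 and puf-11 take most of the family in every library, and in L4 replicate 2 puf-12 alone takes 54.3%.

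To compare levels between genes, CPM was divided by exon length in kilobases (RPKM). At Day 6 the order was puf-5 (536 ± 192 RPKM, SD, n = 3), puf-3 (287 ± 68.9), puf-11 (188 ± 42.6), puf-7 (66.2 ± 25.4), puf-6 (66.0 ± 19.3), puf-12 (31.3 ± 7.08), puf-8 (24.8 ± 8.15), fbf-1 (4.72 ± 0.342) and fbf-2 (2.59 ± 0.425). The libraries of puf-11 and puf-7, of puf-6 and puf-12, of puf-8 and fbf-1, and of fbf-1 and fbf-2 did not overlap. The ranges of puf-5 and puf-3 overlapped, as did those of puf-3 and puf-11, but the order was the same in all 3 libraries. The order of puf-7 and puf-6 was not, with puf-7 higher in 1 of 3 libraries. Among 12535 genes ranked by mean RPKM at Day 6, puf-5 was at position 167, puf-3 at 260 and puf-11 at 348, and fbf-1 and fbf-2 at 6760 and 8163.

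At L4 the mean levels on the same scale had a narrower span than at Day 6, but the span differed between the libraries. It was 0.833 (fbf-1) to 11.2 RPKM (puf-3) in L4 replicate 1, which held few counts of long genes. In L4 replicate 2 it was 0.422 (puf-6) to 35.0 RPKM (puf-12). Mean levels went from 19.2 ± 22.3 RPKM (SD, n = 2) for puf-12 and 11.3 ± 0.173 for puf-3 to 1.64 ± 0.745 for puf-7 and 1.40 ± 1.38 for puf-6. Of the neighbours in this order, puf-3 and puf-5 (9.14 ± 0.887 RPKM) did not overlap, nor did fbf-2 (2.87 ± 0.00770) and fbf-1 (1.77 ± 1.32), and the others did. Thus fbf-2 lay above puf-6 and puf-7 in both L4 libraries and below them in all Day 6 libraries.

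Within pairs of close paralogs, the balance of counts was compared inside each library. Of the counts of fbf-1 and fbf-2 together, fbf-1 held 22.2% (95% exact binomial interval 10.1% to 39.2%, 36 counts) and 48.2% (40.9% to 55.5%) in L4 replicates 1 and 2. At Day 6 it held 61.7% (57.4% to 65.8%), 62.5% (57.1% to 67.8%) and 68.8% (62.9% to 74.3%). The Day 6 intervals lie above both of those at L4, and the intervals cover counting error only. The log2 ratio of fbf-1 to fbf-2 was 1.78 higher at Day 6 (exact permutation test over the libraries, two-sided p = 0.10, adjusted p = 0.30 over 3 pairs), where 0.10 is the smallest p that 2 against 3 libraries allow. The difference was 0.96 without L4 replicate 1 and 2.60 without L4 replicate 2.

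The other pairs gave steady ratios at Day 6. Of the counts of puf-3 and puf-11, puf-3 held 59.9%, 59.5% and 61.9% at Day 6 and 50.6% (42.7% to 58.5%) and 70.5% (65.9% to 74.8%) at L4. Of the counts of puf-6 and puf-7, puf-6 held 48.6%, 53.9% and 50.6% at Day 6 and 52.8% (35.5% to 69.6%) and 27.9% (15.3% to 43.7%) at L4. The Day 6 shares of puf-3 lay between its L4 shares. Those of puf-6 did so except in Day 6 replicate 2 (53.9%), which lay above L4 replicate 1 (52.8%). The log2 ratio differed between the stages by -0.032 for puf-3 over puf-11 (exact permutation p = 0.80, adjusted 0.80) and by 0.65 for puf-6 over puf-7 (exact permutation p = 0.40, adjusted 0.60), less than the spread of the L4 libraries (SD 0.86 and 1.05). How many reads the paralogs share was not tested.

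**Figure D4:**
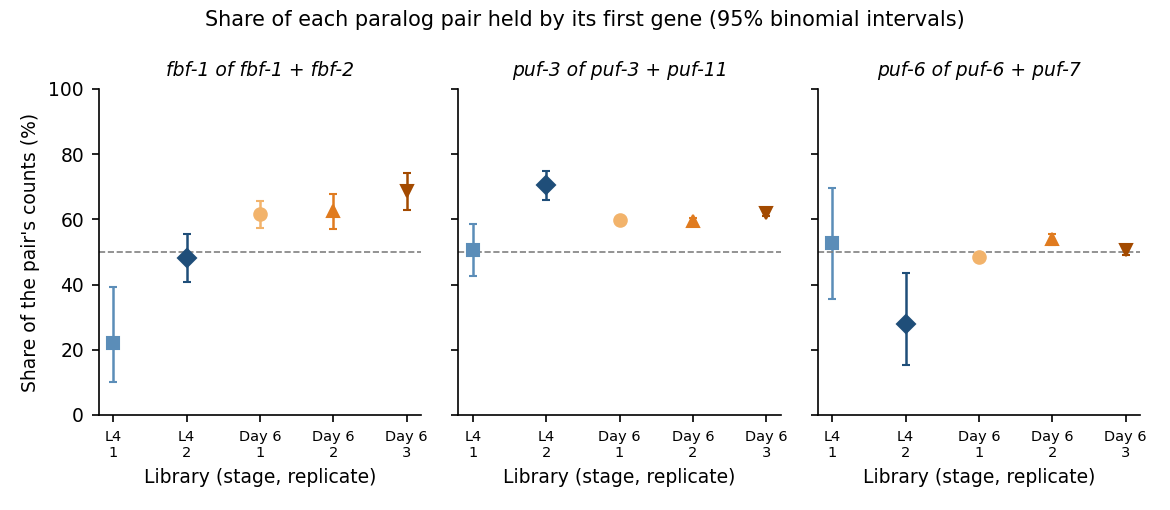
Share of the counts of each paralog pair (percent) held by fbf-1, puf-3 and puf-6 in each library, with 95% exact binomial intervals for counting error and a dashed line at 50%. Only the fbf-1 panel has all Day 6 points above both L4 points.

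Germline markers did not all move the same way. Over all genes tested, 14.3% rose and 12.5% fell. With all 5 libraries, all 10 oocyte markers measured rose, with summed levels of 269 to 289 CPM at L4 and 7414 to 16153 CPM at Day 6. Of 8 germ cell markers 5 rose, none fell and 3 did not pass (242 to 465 CPM at L4, 865 to 1457 CPM at Day 6). Of 8 sperm markers, 5 were tested and 4 of these fell (146 to 152 CPM at L4, 11.95 to 35.5 CPM at Day 6), and all 5 markers of zygotic embryonic transcription were at 0 counts in both L4 libraries and added up to 1.08 to 2.62 CPM at Day 6. None of these lists held a marker with 0 counts in all Day 6 libraries. The counts of calls depended on the libraries and the fit. Without Day 6 replicates 1, 2 and 3 the oocyte markers that rose numbered 5, 7 and 4. The germ cell markers that rose numbered 0, 1 and 0, and the sperm markers that fell 0, 1 and 0. In these fits 266 of 12528, 484 of 12118 and 240 of 12359 genes tested rose, and 298, 502 and 308 fell. With the blocks by title and by library-name numbers the counts were 7 and 3 (oocyte), 1 and 0 (germ cell) and 3 and 0 (sperm). There 817 and 412 of 12758 genes tested rose, and 645 and 359 fell. Without L4 replicates 1 and 2 in turn, the median log2 fold change was 5.70 and 5.27 (oocyte) and 2.60 and 1.91 (germ cell). The part of these cell types in the rise of the PUF genes was not tested. Of the somatic markers, 4 of 5 of the epidermis and 3 of 5 of the intestine fell, and none of 5 of muscle or of 5 of neurons passed in either direction with edgeR, DESeq2 or voom, or with edgeR at an unadjusted p under 0.05. No intestine marker fell with any Day 6 library left out or with either block. Calls of muscle, neuron, epidermis and intestine markers changed when an L4 library was left out. Without L4 replicates 1 and 2 in turn, the median log2 fold change was -0.40 and 1.30 for muscle and -0.32 and 2.50 for neurons. It was -6.42 and -7.03 for the epidermis, -1.48 and -3.55 for the intestine, and 0.072 and 1.05 over all genes.

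The ratio of each gene to these marker sums within a library, a scale chosen after the data were seen, differed among the genes. The oocyte sum itself rose (269 to 289 CPM at L4, 7414 to 16153 CPM at Day 6). A gene whose CPM stays level is therefore lower at Day 6 on that scale. How many of all genes had no overlap between the stages on either scale was not counted. The largest parts of the oocyte sum at Day 6 were cpg-2, cbd-1 and cpg-1 (means 3693, 2683 and 2004 CPM). Relative to the oocyte markers, puf-3 was lower at Day 6 by a mean log2 difference of -0.62 and puf-5 higher by 0.56. Neither gene overlapped between the stages. The stages overlapped for puf-6, puf-7 and puf-11 (0.71, 0.058 and -0.59), and the difference for puf-6 was 1.89 without L4 replicate 1 and -0.48 without L4 replicate 2. On the same scale puf-8, fbf-1, puf-12 and fbf-2 were lower at Day 6 by -2.27, -3.64, -3.77 and -5.41, again with no overlap. The sizes depended on the L4 library, with -3.50, -4.50, -5.48 and -5.45 without L4 replicate 1 and -1.05, -2.78, -2.06 and -5.37 without L4 replicate 2. Most of the germ cell sum came from cgh-1, deps-1 and glh-1, the 3 markers that did not pass (log2 fold changes 1.90, 2.45 and 0.11). Relative to the germ cell markers, the 5 oogenesis genes were higher at Day 6 by 2.91 to 4.24 with no overlap, and fbf-2 was lower by -1.88 with no overlap. The ratios of fbf-1, puf-12 and puf-8 to germ cell markers overlapped between the stages (-0.11, -0.24 and 1.26). Without L4 replicate 1 the differences were -1.39, -2.37 and -0.39. Without L4 replicate 2 they were 1.17, 1.89 and 2.91, so each sign depended on the L4 library. No test was run on these ratios, since 2 against 3 libraries cannot give an exact p under 0.10.

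Dividing by either marker sum narrowed the spread of some genes among the Day 6 libraries. The SD of log2 CPM over the 3 libraries was 0.58 for puf-5, 0.60 for puf-7 and 0.45 for puf-6 and puf-8. Relative to the oocyte markers it was 0.27 for puf-5, 0.20 for puf-7, 0.21 for puf-6 and 0.13 for puf-8, and relative to the germ cell markers 0.29, 0.27, 0.15 and 0.088. For puf-3 and puf-11 it was 0.37 and 0.34 before, 0.30 and 0.27 relative to oocyte markers and 0.18 and 0.11 relative to germ cell markers. It widened for fbf-1 (from 0.11 to 0.48 and 0.30), fbf-2 (from 0.24 to 0.45 and 0.29) and puf-12 (from 0.35 to 0.89 and 0.70) relative to oocyte and germ cell markers.

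Among other genes of the family, puf-10, listed in the files without a WormBase ID, had 7 and 25 counts at L4 and 2881, 910 and 1222 at Day 6. Its rise was 5.41 on the log2 scale (SE 0.67, edgeR adjusted p = 0.00405). It also rose under every alternative other than the length correction, which could not be applied to it for want of an exon length. The somatic PUF gene puf-9 had 14.2 ± 17.5 CPM at L4 (1.88 and 26.6) and 14.6 ± 2.52 at Day 6 (means ± SD) and did not pass the test (log2 fold change 0.015, edgeR adjusted p = 0.991). Only 4 counts of puf-4 were found in all 5 libraries, and it was not tested.

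Of 8 genes measured whose products work with PUF proteins, 4 rose, 1 fell and 3 did not pass, where 14.3% of all genes tested rose and 12.5% fell (median log2 fold change 1.91, against 0.082 over all genes). One that rose was mex-3, which encodes a KH-domain RNA-binding protein that acts with PUF-8, from 9.64 ± 1.34 to 185 ± 25.9 CPM (SD, 2 L4 and 3 Day 6 libraries), or 4.26 on the log2 scale (edgeR adjusted p = 0.00495). Another was gld-3, a KH-domain protein that binds FBF, from 4.60 ± 2.19 to 137 ± 32.2 CPM, or 4.86 on the log2 scale (edgeR adjusted p = 0.00462). The gene that fell, dlc-1, encodes a dynein light chain that binds FBF-2. Its log2 fold change was -2.26 (edgeR adjusted p = 0.0403) and -0.95 without L4 replicate 1 (adjusted p = 0.0199). It did not pass when any Day 6 library was left out (-2.34 to -2.24), with either replicate block (-1.94 and -2.03) or after the length correction (-1.71, adjusted p = 0.0668). The FBF corepressor genes lst-1 and sygl-1, which act in stem cells, had log2 fold changes of 1.88 and 0.82 that missed the threshold (edgeR adjusted p = 0.0698 and 0.367). Without Day 6 replicates 1, 2 and 3 the partner genes that rose numbered 2, 3 and 2. In these fits 266 of 12528, 484 of 12118 and 240 of 12359 genes tested rose. Partner genes that rose numbered 3 with either replicate block and 0 by library size alone. There 817 (title numbers), 412 (library-name numbers) and 150 (library size) of 12758 genes tested rose.

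Of 13 genes known as targets of FBF, PUF-5 or PUF-8, 9 rose, none fell and 4 did not pass (median log2 fold change 2.79). Over all genes tested, 14.3% rose and 12.5% fell. The tumor suppressor gene gld-1, an FBF target whose product drives entry into meiosis, went from 23.2 ± 9.04 to 288 ± 70.1 CPM (SD), or 3.64 on the log2 scale (edgeR adjusted p = 0.0102). It did not pass without Day 6 replicate 1 or 3 (3.43 and 3.61, edgeR adjusted p = 0.0574 and 0.0611), with the block by library-name numbers (3.49, adjusted p = 0.134) or after the length correction (2.50, adjusted p = 0.0542). The Notch receptor gene glp-1, whose mRNA is repressed by PUF-5 in oocytes, went from 2.57 ± 1.98 to 94.9 ± 8.45 CPM, or 5.12 on the log2 scale (edgeR adjusted p = 0.00493). The genes that did not pass were fog-3, mpk-1, egl-4 and let-60. The targets that rose numbered 3, 4 and 3 without Day 6 replicates 1, 2 and 3, where 266, 484 and 240 of all genes tested rose. With the blocks by title and by library-name numbers they numbered 5 and 3, and by library size alone 2. Over all genes tested, 817, 412 and 150 rose in these fits.

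None of 7 genes of the CCR4-NOT complex passed the test with edgeR (median log2 fold change 0.078), where 14.3% of all genes rose and 12.5% fell. At an unadjusted p under 0.05, 2 were higher and none lower. With voom none passed. With DESeq2 1 rose and 1 fell, where 2296 of 12758 genes tested rose and 2763 fell. Without L4 replicates 1 and 2 in turn, their median log2 fold change was 0.74 and -0.47, against 0.072 and 1.05 over all genes. The deadenylase genes ccf-1 and ccr-4 had 123 ± 115 and 27.4 ± 9.48 CPM at L4, against 51.6 ± 13.5 and 65.7 ± 6.32 CPM in the 3 Day 6 libraries (SD).

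**Figure D5:**
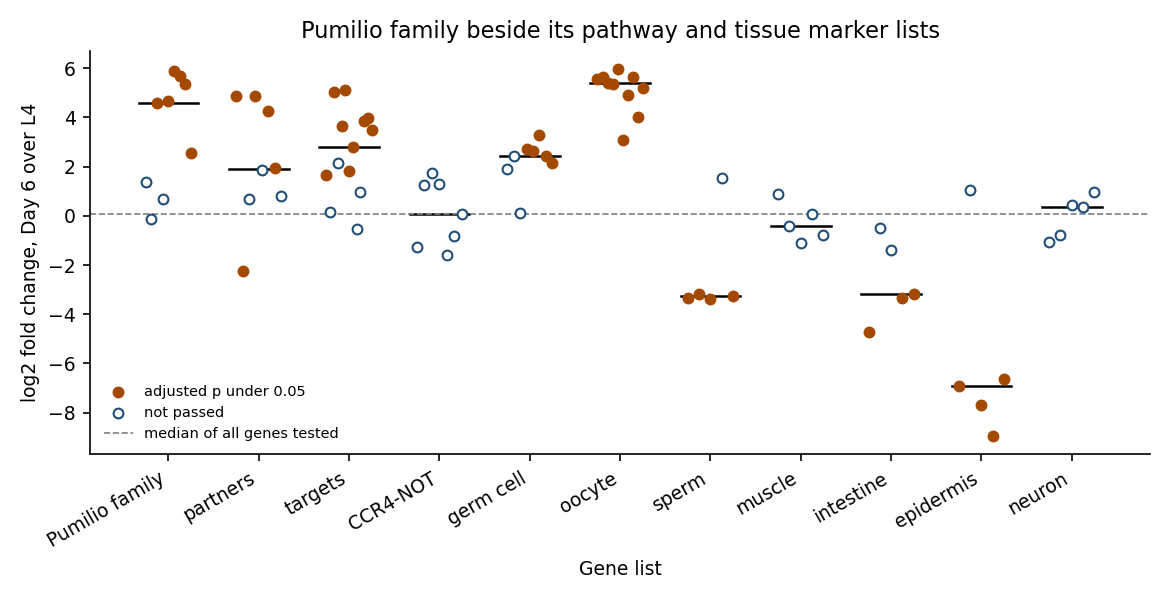
Log2 fold change (Day 6 over L4) of each tested gene of the Pumilio family, its partners, its targets, the CCR4-NOT complex and the tissue marker lists, with a black line at the median of each list and a dashed line at the median of all genes tested, 0.082. The Pumilio family splits into 5 genes above 4, near the oocyte markers (median 5.39), and 4 genes below 3.

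The genes outside the family with the profile nearest to the mean of the 9 PUF genes over the 5 libraries, by Euclidean distance between centred log2 CPM, were ubc-25 (0.17), fat-5 (0.20) and T28C6.3 (0.23). The ubiquitin-conjugating enzyme gene ubc-25 was at 14.8 and 17.4 CPM at L4 and 210, 157 and 182 CPM at Day 6. The fatty acid desaturase gene fat-5 was at 10.3 and 11.6 CPM at L4 and 151, 91.2 and 140 CPM at Day 6. T28C6.3 had no count at L4 and 45, 19 and 22 counts at Day 6, so that its distance rests on the prior count of 2 added before taking logs. The PUF genes themselves lay 1.17 (puf-3) to 4.11 (fbf-2) from their mean, so the mean profile describes none of them closely.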

How the data were processed

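The authors depleted rRNA from total RNA, made strand-specific cDNA, sequenced single reads, used TopHat2 to align them to WormBase release WS254 and featureCounts to count them per gene. The deposited tables hold unnormalized read counts, 1 library per table; versions, the strand setting and the handling of reads with several matches are not given in the sources used here. Of 19176 features, 17858 were named through a WormBase ID and the rest by locus tag or alias. Gene positions and exon lengths were read from an Ensembl annotation (WBcel235).

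Genes were kept by filterByExpr (minimum count 10, minimum total 15) and tested with edgeR 4.0.16 in R 4.3.3 after TMM scaling. Calls used a Benjamini-Hochberg adjusted p under 0.05. Alternatives were other scalings, DESeq2 1.42.0, voom in limma 3.58.1, other filters, each library left out, replicate blocks and removal of the exon length trend (lowess, span 0.3). With 1 L4 library left, its spread was taken to equal that of Day 6. Log2 CPM used a prior count of 2 and paralog ratios 0.5. The fits were also run on simulated counts. These held no exon length trend and no library that stood apart, so they do not test the fits under those features.

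Samples were grouped by their titles. The study states that RNA of 1 replicate was prepared together. Deviations from stage means correlated at 0.34 and 0.27 for libraries paired by title numbers, and at -0.27 and 0.13 by library-name numbers. The deviations of the 2 L4 libraries from their mean are mirror images, so the values of a pairing are not independent and do not settle it. The members and lists were chosen with earlier results of these data known. Named were all members, up to 2 genes per direction and pathway list of the highest mean CPM, and the 3 nearest profiles. Other named list genes, the ratios to marker sums and the list counts under alternatives were chosen after the data were seen. List genes without a match were not analysed here. Figures were drawn with matplotlib 3.10.9 in Python 3.11.15.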

Additional observations from a re-analysis of the deposited data

How the results depend on the processing

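The number of PUF genes that rose was 6 and ranged from 3 to 8 when 1 library was left out (3 without Day 6 replicate 3, where puf-3, puf-6 and puf-7 passed, and 8 without L4 replicate 2). It was 5 with the replicate block by title numbers and 2 with the replicate block by library-name numbers, 5 with upper-quartile or library size scaling, and 6 in the other alternatives; none fell in any. Over the 9 genes under 16 alternatives, 127 values kept direction and side of the threshold, 12 lost the call, 2 gained it and 3 changed sign. The changes of sign were fbf-2 at 0.29 by library size, and puf-12, -0.081 without L4 replicate 1 (-0.081 to 3.18 over the libraries left out) and at -0.37 with the length trend removed and without L4 replicate 1. The log2 ratio difference of puf-3 to puf-11 ranged from -0.64 to 0.58 and that of puf-6 to puf-7 from -0.096 to 1.39 over the libraries left out, and both changed sign without L4 replicate 2. The causes were not tested. Over all genes, 1829 rose and 1601 fell; the numbers were 150 and 175 by library size, 2296 and 2763 with DESeq2, 3721 and 3450 without L4 replicate 1, 4837 and 3215 without L4 replicate 2, 817 and 645 with the block by title numbers and 412 and 359 with that by library-name numbers. With 1 Day 6 library left out, 240 to 484 rose and 298 to 502 fell. The median log2 fold change of all genes was 0.082, and moved to -0.14 (relative log expression), -0.22 (upper quartile), 0.46 (library size) and 1.05 (without L4 replicate 2); relative to it fbf-2 was below 0 in each of these. Low counts at L4, 8 to 31 in at least 1 library for puf-6, puf-7, puf-8, fbf-1 and fbf-2, limit what folds of these genes can show.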
